A study of Mus musculus with 6 samples.

Results

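Fatty acid oxidation and mitochondrial uncoupling are described here through 10 genes, measured in cultured mouse fetal liver macrophages with and without Ahrr, whose protein product represses signalling by the aryl hydrocarbon receptor. The genes are the uncoupling proteins Ucp2 and Ucp3, the carnitine palmitoyltransferases Cpt1a and Cpt2, the acyl-CoA dehydrogenases Acadvl, Acadl and Acadm, the trifunctional protein subunits Hadha and Hadhb, and the pyruvate dehydrogenase kinase Pdk4. The genes were taken by symbol from the deposited expression table, and all 10 were found among its 16111 genes. The list is not independent of the data: it was chosen by the measured difference between the 2 genotypes, together with the known pathway. The fold changes and adjusted p values below therefore describe these genes and lend no support to the choice.

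The libraries form 2 groups of 3, WT and AhRR-/- (called Ahrr-deficient below), both on the C57BL/6 RCC strain, with 1 mouse number per library in the labels. Fetal liver cells taken at E13.5 were kept for 5 weeks in RPMI medium with fetal calf serum and 2% GM-CSF, a growth factor for macrophages, and the non-adherent cells were sequenced. Both groups went through the same culture, and the labels describe the mutation no further than AhRR-/-. PolyA RNA was read as single 75 bp reads, and levels are given as counts normalised to the authors' size factors. In such bulk samples, fewer cells of a type and less RNA per cell cannot be told apart.

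Libraries differed in depth, with total counts from 3556106 in Ahrr-deficient replicate 1 to 41668336 in Ahrr-deficient replicate 2. In WT replicate 2 a ribosomal RNA gene took 5.28% of the counts, against at most 0.0679% elsewhere. The targeted gene Ahrr had 48.9, 50.1 and 55.2 normalised counts in WT and 23.4, 26.2 and 12.6 in Ahrr-deficient replicates 1 to 3, so it was lower in every Ahrr-deficient library and was detected in all of them (log2 fold change -1.21, SE 0.26, edgeR adjusted p 0.0151, and up to 0.0631 without WT replicate 1 or 3). The deleted part of Ahrr is not given in the sources used here, so these reads do not check the labels fully. All 13 macrophage markers reached 1 CPM (counts scaled to the library total), with a summed level of 57435 to 64684 CPM in WT and 50998 to 60184 CPM in Ahrr-deficient libraries, of which Chil3 and Lyz2 made up 88.2% to 90.2%. Within that list Itgax (log2 fold change 1.70, edgeR adjusted p 6.96e-04) and Mrc1 (0.59, 0.00766) rose, Csf1r (-0.65, 0.0304) fell, and 10 did not pass. Of 61 markers in 9 lists of other cell types, 16 are in the table used here and 6 reached 1 CPM. Among these the hepatocyte-list gene Trf (-0.75, edgeR adjusted p 0.00618) and the megakaryocyte-list gene Itga2b (-1.10, 0.0147) fell and the erythroid-list gene Tfrc (0.71, 0.00645) rose, while Alb, Ttr and Pf4 are not in the table used here. With 1 library left out Csf1r was called in 1 of 6 fits (without Ahrr-deficient replicate 1), Itga2b in 2, and the other 4 in all 6, and the part of these markers in the results below was not tested. Of the markers listed for brown adipocytes and muscle, where Ucp3 and Pdk4 are typically high, only Ucp1 was in the table, at 0.159 to 0.844 CPM.

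Long-chain fatty acids enter mitochondria as carnitine esters. CPT1A on the outer membrane makes the ester and CPT2 on the inner membrane turns it back into an acyl-CoA. Each round of beta-oxidation then begins with an acyl-CoA dehydrogenase matched to the chain length, and for long chains the trifunctional protein of HADHA and HADHB carries out the remaining steps. PDK4 phosphorylates and switches off pyruvate dehydrogenase, which spares pyruvate when fat is burned. UCP2 and UCP3 are carriers of the mitochondrial inner membrane, of which UCP2 is abundant in macrophages and UCP3 is best known from muscle and brown fat. Several of these genes are textbook targets of the fatty acid-sensing PPAR receptors.

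The sequences upstream of the 3 genes with the largest differences are shown to let a reader place 2 motifs in them. They come from RefSeq on GRCm38.p6, are written 5′ to 3′ on the strand of the gene, and end before the first annotated base of the gene in GENCODE. Capitals mark AGGTCA, the half-site bound by nuclear receptors such as the PPARs, in Ucp3, and GCGTG, the core of the response element of the aryl hydrocarbon receptor, on either strand (CACGC when on the other strand) in Ucp2 and Pdk4.
Ucp3 (chr7:100472741-100472989, plus strand): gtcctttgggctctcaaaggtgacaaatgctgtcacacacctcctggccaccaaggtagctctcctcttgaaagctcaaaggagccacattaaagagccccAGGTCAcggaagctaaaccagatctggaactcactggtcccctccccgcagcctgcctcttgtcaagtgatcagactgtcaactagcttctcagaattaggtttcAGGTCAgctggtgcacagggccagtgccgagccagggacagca
Ucp2 (chr7:100493108-100493336, plus strand): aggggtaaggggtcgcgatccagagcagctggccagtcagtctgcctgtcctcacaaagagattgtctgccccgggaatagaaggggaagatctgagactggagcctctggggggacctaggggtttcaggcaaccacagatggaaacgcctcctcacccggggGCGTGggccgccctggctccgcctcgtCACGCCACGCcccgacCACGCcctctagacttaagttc
Pdk4 (chr6:5496310-5496528, minus strand): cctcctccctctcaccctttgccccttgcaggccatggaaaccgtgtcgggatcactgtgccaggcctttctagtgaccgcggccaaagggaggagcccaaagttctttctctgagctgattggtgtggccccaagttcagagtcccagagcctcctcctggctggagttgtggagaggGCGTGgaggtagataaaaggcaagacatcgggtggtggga

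Motifs were searched on both strands in the 250 bases before the RefSeq start of all 10 genes and of 32841 windows in all. By GENCODE all 250 bases of the Cpt1a window and 182 of the Hadha window lie inside the gene. The matches in Cpt1a are therefore not upstream of that gene, while the only match in Hadha lies outside its gene. The half-site AGGTCA was in 4 of the 10 windows (Ucp3, Cpt1a, Acadm and Acadvl) and in 14.0% of all windows. Ucp3 held it at 2 places, beginning 149 and 44 bases before the start, and at least 2 copies were in 1.36% of windows. The tandem form AGGTCANAGGTCA, which contains the half-site and is the usual PPAR element, was in 0 of the 10 windows and in 0.0335% of all windows. GCGTG was in 5 of the 10 (Ucp2, Cpt2, Acadm, Acadvl and Pdk4) and in 28.2% of all windows. Ucp2 held 4 copies, beginning 86, 59, 54 and 43 bases before the start, a number reached by 0.847% of windows. Its copy at 59 also matched the longer form TNGCGTG, which contains GCGTG, found in 4.1% of windows and in no other of the 10. The GC box GGGCGG was in 6 of the 10 (32.7% of all windows) and CCAAT in 2 of the 10 (33.9%). The Hadha and Hadhb windows overlap, and the GC box at 188 in Hadha is the same stretch as that at 90 in Hadhb. Such a match describes letters in a window and is not evidence of a bound site.

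The 10 genes split into 3 with large differences (Pdk4, Ucp3 and Ucp2), 2 with modest ones (Cpt1a and Acadl), and 5 that did not pass the test. All 10 had enough counts to be tested, and 5 fell in Ahrr-deficient macrophages and 0 rose at an edgeR adjusted p under 0.05 over 11408 genes. Across all tested genes 19.6% were called, 9.95% lower and 9.62% higher. The median log2 fold change of the 10 was -0.36, beside 0.01 for all tested genes, and 9 of the 10 fitted values were below 0, beside 49.1% of all tested genes. Differences of at least 1 on the log2 scale were called for 3 members, all lower, beside 2.6% of all tested genes. In 8 of the 10 every Ahrr-deficient library lay below every WT library, beside 19.5% of all tested genes. On plain CPM, which the ribosomal RNA in WT replicate 2 lowers for that library, this held for 4 of the 10 (Ucp2, Ucp3, Acadl and Pdk4) and for 12.8% of all tested genes. Without Ahrr-deficient replicate 1 the count of called members was 9, beside 32.6% of all tested genes, and without WT replicate 3 it was 4 (9.35%). It was 3 without WT replicate 1 (6.07% of all tested genes), WT replicate 2 (8.15%), Ahrr-deficient replicate 2 (8.31%) or Ahrr-deficient replicate 3 (10.3%).

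**Figure D1:**
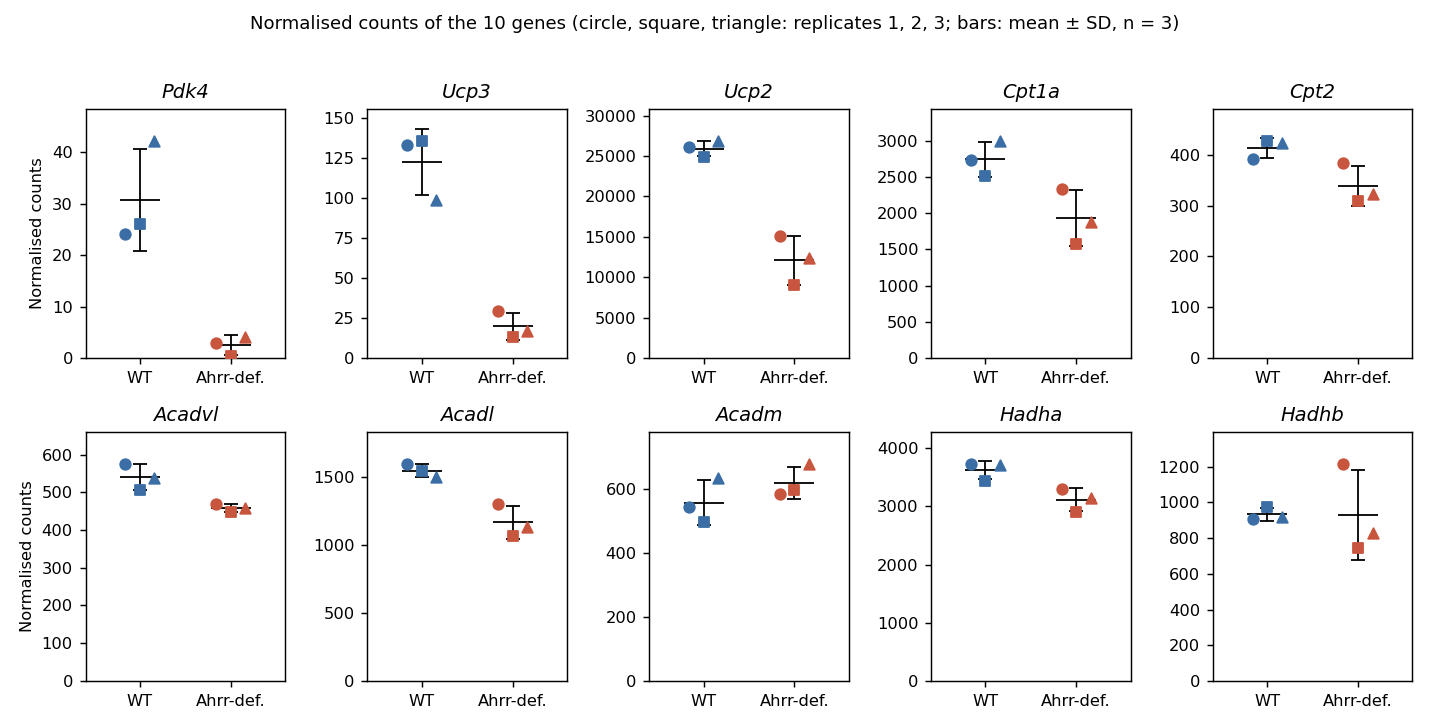
Normalised counts of each of the 10 genes in the 3 WT (blue) and 3 Ahrr-deficient (red) libraries, on a linear axis from 0, with circles, squares and triangles for replicates 1, 2 and 3 and black lines for the mean and SD. Pdk4, Ucp3 and Ucp2 show the widest gaps between groups, Acadm and Hadhb overlap, and the other 5 are separated by smaller gaps.

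Ucp2 (ENSMUSG00000033685.13, chromosome 7, 100493337 to 100502020, plus strand) was by far the most abundant of the 10. Its normalised counts were 26063, 24914 and 26819 in WT replicates 1 to 3 and 15050, 9006 and 12329 in Ahrr-deficient replicates 1 to 3. The WT libraries were close together (SD 3.7% of the mean), the Ahrr-deficient libraries were spread more widely (25.0%), and the groups did not overlap. Ucp2 fell from 25932 ± 959 to 12128 ± 3027 (SD, n = 3), which edgeR put at -1.10 on the log2 scale (SE 0.18, adjusted p 0.00594). The call was made in each of the 6 fits with 1 library left out, with log2 fold changes from -1.30 to -0.93. An exon of Dnajb13 overlaps Ucp2 on the opposite strand, and whether counting used strand is not given in the sources used here.

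Ucp3 (ENSMUSG00000032942.14, chromosome 7, 100472990 to 100486432, plus strand) lies next to Ucp2, ending 6904 bp before it on the same strand. It had 133, 135 and 98.7 normalised counts in WT and 29.3, 13.46 and 16.7 in Ahrr-deficient replicates 1 to 3. Even the highest Ahrr-deficient library lay far below the lowest WT library. Ucp3 fell from 122 ± 21 to 19.8 ± 8.3 (SD, n = 3), which edgeR put at -2.93 on the log2 scale (SE 0.26, adjusted p 6.59e-04). Reads were also pooled within each group and divided by the summed size factors. The WT level was then 8.39 times the Ahrr-deficient level (95% exact interval 6.60 to 10.8, for counting error only), from 416 and 81 reads. Pooling weights libraries by depth, and Ahrr-deficient replicate 2, the deepest and lowest, held 55 of the 81 reads. The ratio of the group means was 6.17, outside that interval. The call was made in all 6 fits with 1 library left out.

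Within each library Ucp3 was also lower relative to Ucp2 in the Ahrr-deficient group. The log2 ratio of Ucp3 to Ucp2 counts was -7.61, -7.52 and -8.09 in WT and -9.01, -9.39 and -9.52 in Ahrr-deficient replicates 1 to 3. These ratios do not depend on library scaling, and the groups did not overlap, with a difference of -1.56 between their means. Per kb of the principal transcript, Ucp2 was 113 to 167 times as abundant as Ucp3 in WT and 316 to 452 times in Ahrr-deficient libraries. Transcripts of the muscle-type uncoupling protein were a small minority beside Ucp2 in both genotypes.

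The tested genes around the pair were compared to place these differences on the chromosome. Gm10603, an antisense RNA on the minus strand, starts inside the Ucp3 gene, 1.9 kb past the Ucp3 start. The 2 genes share no annotated exonic sequence, and whether any of their reads were confused was not tested. Gm10603 fell from 39.1 ± 3.9 to 12.1 ± 2.2 normalised counts (log2 fold change -1.81, SE 0.23, edgeR adjusted p 0.00257). It overlaps exons of C2cd3, which edgeR put at -0.19 on the log2 scale (SE 0.15, adjusted p 0.387). Dnajb13, which starts 42.0 kb away on the minus strand and shares exonic sequence with Ucp2, fell from 406 ± 4 to 267 ± 26 (log2 fold change -0.60, SE 0.10, edgeR adjusted p 0.00658). Because strand use is unknown, reads of Ucp2 and Dnajb13 in the shared stretch cannot be told apart. Farther out, Coa4 (-0.17, SE 0.11, edgeR adjusted p 0.292) and Mrpl48 (-0.06, SE 0.10, edgeR adjusted p 0.721) did not pass the test. Nearer by, Gm37716, which starts 14.5 kb before the Ucp3 start, had too few counts to be tested.

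**Figure D2:**
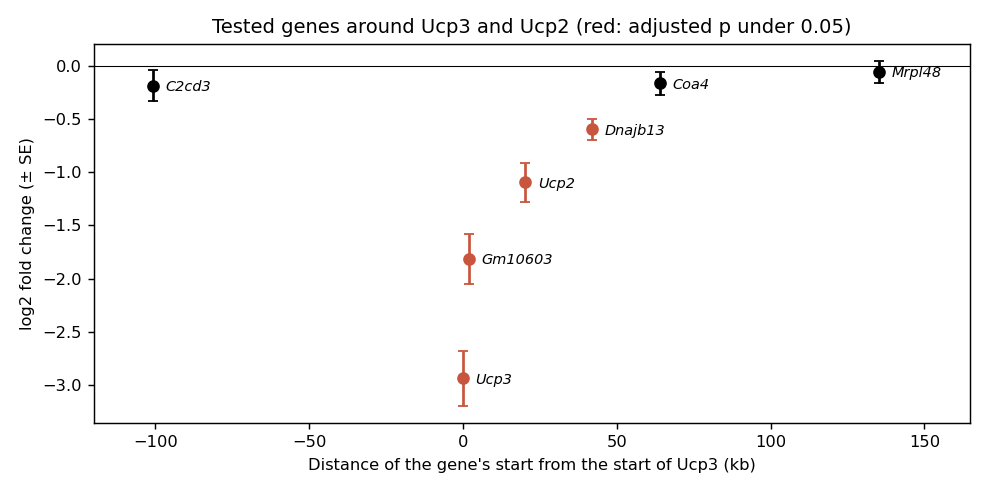
Log2 fold change (Ahrr-deficient over WT, bars ± SE) of the tested genes around Ucp3 and Ucp2 against the distance of each gene's start from the Ucp3 start in kb, with red points for an edgeR adjusted p under 0.05. The 4 called genes, Ucp3, Gm10603, Ucp2 and Dnajb13, start within 42.0 kb of each other, and C2cd3, Coa4 and Mrpl48 lie near 0.

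Pdk4 (ENSMUSG00000019577.6, chromosome 6, 5483351 to 5496309, minus strand) was the least abundant of the 10 and had the largest fold change. It had 50, 14 and 29 reads in WT and 1, 2 and 4 reads in Ahrr-deficient replicates 1 to 3, or 24.2, 25.95 and 42.1 against 2.93, 0.489 and 4.19 normalised counts. Ahrr-deficient replicates 1 and 2 lay below the detection floor of 3 reads and replicate 3 just above it, and the gene passed the filter on low counts through its WT level. Pdk4 fell from 30.7 ± 9.9 to 2.53 ± 1.88 normalised counts (SD, n = 3), with an edgeR log2 fold change of -4.35 (SE 0.58, adjusted p 0.00297). The fitted fold change is loosely determined and moved to -2.91 without Ahrr-deficient replicate 2, the deepest library. Pooled in the same way, the WT level was 21.7 times the Ahrr-deficient level (95% exact interval 10.1 to 55.5, for counting error only), from 93 and 7 reads. This too gives the deepest library the most weight, and the ratio of the group means was 12.1.

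Cpt1a (ENSMUSG00000024900.4, chromosome 19, 3322334 to 3385733, plus strand) encodes the rate-limiting step of long-chain fatty acid entry. It had 2730, 2512 and 2991 normalised counts in WT and 2338, 1582 and 1883 in Ahrr-deficient replicates 1 to 3. The groups did not overlap on this scale, with Ahrr-deficient replicate 1 just under the WT range. Cpt1a fell from 2745 ± 240 to 1934 ± 381 (SD, n = 3), which edgeR put at -0.51 on the log2 scale (SE 0.14, adjusted p 0.0362). This call was lost when any 1 library other than Ahrr-deficient replicate 1 was left out, with edgeR adjusted p values up to 0.112. On plain CPM the groups overlapped, with 215 CPM in WT replicate 2 and 225 CPM in Ahrr-deficient replicate 1.

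Cpt2 (ENSMUSG00000028607.16, chromosome 4, 107903981 to 107923610, minus strand), the inner membrane partner of Cpt1a, had 391, 426 and 424 normalised counts in WT. Its Ahrr-deficient values were 383, 310 and 323, all below WT but with replicate 1 just under the lowest WT library. By edgeR the difference was -0.31 on the log2 scale (SE 0.11, adjusted p 0.0745), which did not pass. The log2 ratio of Cpt1a to Cpt2 averaged 2.73 in WT and 2.50 in Ahrr-deficient libraries, and the groups overlapped.

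Of the acyl-CoA dehydrogenases, Acadl (long-chain; ENSMUSG00000026003.5, chromosome 1, 66830839 to 66863277, minus strand) passed the test. It had 1596, 1542 and 1505 normalised counts in WT and 1305, 1066 and 1133 in Ahrr-deficient replicates 1 to 3, with no overlap on either scale. Acadl fell from 1548 ± 46 to 1168 ± 123 (SD, n = 3), which edgeR put at -0.42 on the log2 scale (SE 0.09, adjusted p 0.0166). The call was made without Ahrr-deficient replicate 1 or WT replicate 3 and lost without any of the other 4 libraries, with adjusted p values up to 0.0894.

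Acadvl (very long-chain; ENSMUSG00000018574.14, chromosome 11, 70010183 to 70015411, minus strand) had 575, 506 and 538 normalised counts in WT and 468, 449 and 459 in Ahrr-deficient libraries. The groups did not overlap, the gap was small, and the difference by edgeR of -0.24 on the log2 scale (SE 0.09, adjusted p 0.0786) did not pass. Exons of Dvl2 overlap Acadvl on the opposite strand. Acadm (medium-chain; ENSMUSG00000062908.12, chromosome 3, 153922357 to 153944632, minus strand) was the exception in direction. Its normalised counts were 544, 495 and 633 in WT and 582, 596 and 677 in Ahrr-deficient replicates 1 to 3, which overlap. By edgeR the difference was 0.15 on the log2 scale (SE 0.11, adjusted p 0.348). The ratio of Acadl to Acadm per kb was 2.54 to 3.33 in WT and 1.79 to 2.39 in Ahrr-deficient libraries, with no overlap. The long-chain enzyme was thus lower relative to the medium-chain enzyme in every Ahrr-deficient library. Against the very long-chain enzyme the groups overlapped, with a log2 ratio of Acadl to Acadvl averaging 1.52 in WT and 1.34 in Ahrr-deficient libraries.

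Hadha and Hadhb, the alpha and beta subunits of the trifunctional protein, are transcribed from starts 86 bp apart in opposite directions on chromosome 5. Hadha (ENSMUSG00000025745.11, 30118304 to 30155162, minus strand) had 3724, 3437 and 3703 normalised counts in WT and 3289, 2896 and 3145 in Ahrr-deficient libraries. These did not overlap, but the difference by edgeR of -0.22 on the log2 scale (SE 0.09, adjusted p 0.119) did not pass. Exons of Garem2 overlap Hadha on the opposite strand. Hadhb (ENSMUSG00000059447.13, 30155248 to 30184593, plus strand) had 910, 977 and 916 in WT and 1214, 744 and 830 in Ahrr-deficient replicates 1 to 3. Ahrr-deficient replicate 1 held the highest Hadhb level of all 6 libraries and the other 2 held the lowest, and edgeR put the difference at -0.03 on the log2 scale (SE 0.16, adjusted p 0.905). Without that library it was -0.26 (edgeR adjusted p 0.0310). The ratio of Hadha to Hadhb per kb was 1.79 to 2.09 in WT and 1.38 to 1.98 in Ahrr-deficient libraries, which overlap.

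**Figure D3:**
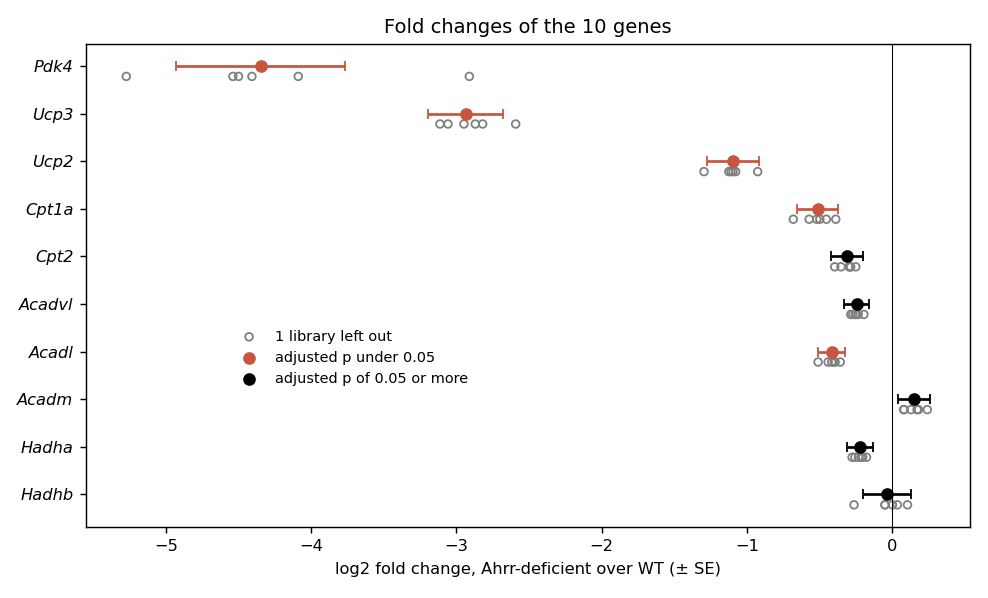
Log2 fold change (Ahrr-deficient over WT) of the 10 genes with SE, red for an edgeR adjusted p under 0.05, and open circles for the 6 fits with 1 library left out. With 1 library left out Pdk4 ranges from -5.27 to -2.91, Ucp3 from -3.11 to -2.59 and Ucp2 from -1.30 to -0.93, and Hadhb falls on both sides of 0.

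For 8 of the 10 genes, all but Acadm and Acadvl, the spread relative to the mean was larger among the Ahrr-deficient libraries than among the WT libraries. Ahrr-deficient replicate 1 was the library of its group nearest to the WT mean for 8 of the 10 genes, beside 38.6% of all tested genes, and it held the highest Ahrr-deficient value for 8. Replicate 2 held the lowest Ahrr-deficient value for 9 of the 10. Replicate 1 was also the shallowest library and replicate 2 the deepest, and the part of depth in this order was not tested. The share of all tested genes was not computed for the wider spread or for the highest and lowest values. Those counts are therefore not read as particular to the 10 genes. Without replicate 1, Cpt2 (edgeR adjusted p 0.00816), Acadvl (0.0422), Hadha (0.0315) and Hadhb (0.0310) were also called, all lower. With WT replicate 2 left out as well, 8 of the 10 were called, beside 25.6% of all tested genes.

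**Figure D4:**
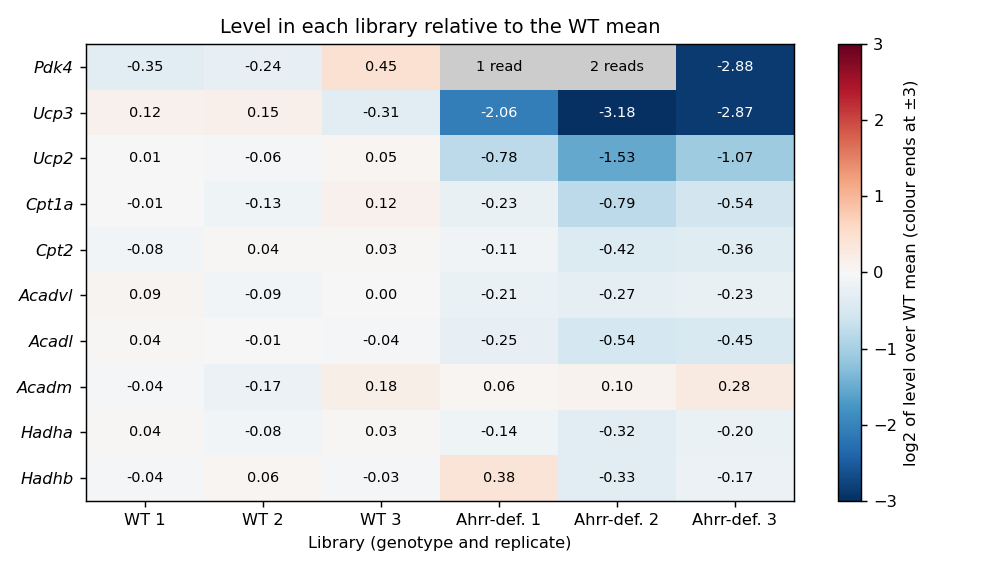
Log2 of each gene's normalised count over its WT mean in each of the 6 libraries, with the value printed in each cell and colour ending at ±3, and grey cells with the number of reads where it is under 3. The WT columns lie between -0.35 and 0.45, while in Ahrr-deficient replicate 2 Ucp2 is at -1.53, Ucp3 at -3.18, and Pdk4 is grey in Ahrr-deficient replicates 1 and 2.

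Across the 6 libraries, Ucp2 on the log2 CPM scale followed Ucp3 (Pearson r 0.97), Acadl (0.98), Hadha (0.97), Cpt1a (0.96) and Pdk4 (0.97), and was less like Hadhb (0.40) and Acadm (-0.47). These correlations are a description over 6 libraries that share the difference between genotypes. The 5 genes most like Ucp3 were Lst1 (r 0.999), Gna12, Nisch, Pkd1l2 and Abhd12 (all others at least 0.998), out of 880 of 11161 genes with r over 0.9. The 5 most like Cpt1a were Slpi (0.996), C5ar2, Slc40a1, Cd46 and Tubb2a, out of 637 genes with r over 0.9. With so many genes over that value, the likeness sets none of them apart.

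Compared per kb of the principal transcript, the WT order of levels was Ucp2 (6502 ± 240 normalised counts per kb), Hadha (902 ± 40), Acadl (808 ± 24), Cpt1a (636 ± 56), Hadhb (456 ± 18), Acadm (272 ± 34), Acadvl (249 ± 16), Cpt2 (174 ± 8), Ucp3 (49.99 ± 8.38) and Pdk4 (8.83 ± 2.83). Acadm and Acadvl, neighbours in this order, did not differ beyond their spread. In the Ahrr-deficient group Cpt1a (448 ± 88) and Hadhb (454 ± 122) were also within their spread of each other. Per kb of all exons together the order changed, with Acadl (772) above Hadha (415) in WT, so these ranks depend on the transcript taken. In normalised counts Ucp2 made up 71.0% to 71.2% of the sum of the 10 genes in WT and 54.0% to 61.0% in Ahrr-deficient libraries.

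The other genes of the pathway were followed in 9 lists of 153 genes, of which 128 were tested and 45 passed, 19 higher and 26 lower (35.2% called, against 19.6% of all tested genes). The lists were drawn up with earlier results of these data known. Among the called genes named below, Acss1, Bdh1, Ncoa1, Slc25a10, Stk11 and Pdha1 share exonic sequence with a gene on the opposite strand, and their values are uncertain to that extent. The median log2 fold change of the 128 was -0.07. In each list the highest count with 1 library left out came without Ahrr-deficient replicate 1, and the lowest from leaving out 1 of the other 5. Of all tested genes, 6.07% (without WT replicate 1) to 32.6% (without Ahrr-deficient replicate 1) were called in these fits. Each of the 45 genes was called without Ahrr-deficient replicate 1, and 14 of them were called in all 6 fits with 1 library left out (named below), while 14 were called in at most 1 of these fits.

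**Figure D5:**
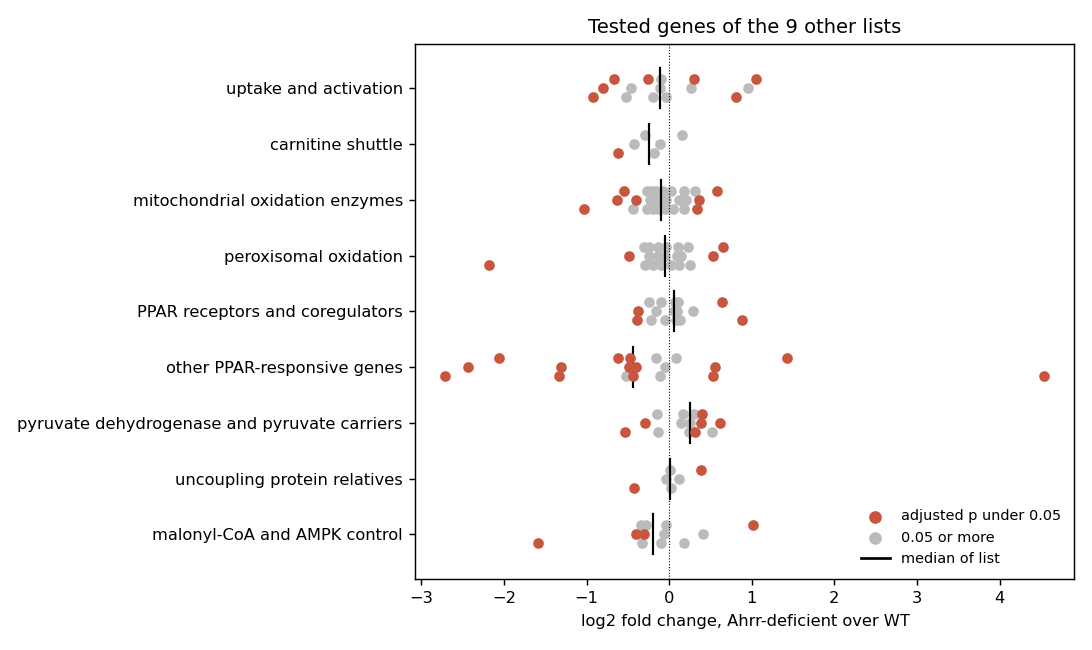
Log2 fold change (Ahrr-deficient over WT) of every tested gene in the 9 lists, red for an edgeR adjusted p under 0.05 and grey otherwise, with a black bar at each list's median. The medians lie between -0.44 (other PPAR-responsive genes) and 0.25 (pyruvate dehydrogenase and pyruvate carriers), and most lists hold called genes on both sides of 0.

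Genes of fatty acid uptake and activation moved in both directions. Of 15 tested, 3 rose and 4 fell (46.7% called beside 19.6% of all tested genes, median -0.12). With 1 library left out, 3 to 10 were called. The fatty acid transporter Slc27a1 fell from 1182 ± 72 to 634 ± 86 normalised counts (log2 fold change -0.92, SE 0.11, edgeR adjusted p 0.00217), while the arachidonate-preferring acyl-CoA synthetase Acsl4 rose from 1244 ± 227 to 2172 ± 358 (0.81, SE 0.15). Slc27a1, Acsl4 and the fatty acid-binding protein Fabp5 (-0.67, named after its value was seen) were called in all 6 fits with 1 library left out. The binding protein Fabp1 rose from a low level (17.5 to 39.9, log2 fold change 1.05) and the mitochondrial acetyl-CoA synthetase Acss1 fell (62.9 to 40.1, -0.81), both in at most 2 of those fits. The abundant binding proteins Fabp4 (-0.53, edgeR adjusted p 0.0878) and Dbi (-0.10, 0.490) did not pass.

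In the carnitine shuttle, 1 of 6 tested genes passed besides Cpt1a (16.7%, beside 19.6% of all tested genes). Slc25a20, the carrier that exchanges acylcarnitine for carnitine between the actions of CPT1 and CPT2, fell from 409 ± 37 to 275 ± 47 normalised counts (log2 fold change -0.62, SE 0.13, edgeR adjusted p 0.0151). It was called in 2 of the 6 fits with 1 library left out, those without WT replicate 2 and without Ahrr-deficient replicate 1. The acetyltransferase Crat (-0.18) and the octanoyltransferase Crot (0.16) did not pass, and the list median was -0.24.

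Among 27 other mitochondrial oxidation enzymes, 3 rose and 4 fell (25.9% called beside 19.6% of all tested genes, median -0.10). With 1 library left out, 2 to 10 were called. Acad12 fell from 156 ± 5 to 77.7 ± 6.7 normalised counts (log2 fold change -1.03, SE 0.13, edgeR adjusted p 0.0024), and Acadsb, the short/branched-chain dehydrogenase of isoleucine breakdown, rose from 497 ± 29 to 741 ± 28 (0.58, SE 0.08). Both were called in all 6 of those fits. Acad10 (-0.64) and the thioesterase Acot2 (-0.55) fell, and reads of Acad10 and Acad12, and of Acot1 and Acot2, are uncertain because these are similar neighbouring copies. The electron carrier subunit Etfa (0.17) and the thiolase Acaa2 (-0.16), among the most abundant of the list, did not pass.

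Of 21 peroxisomal genes tested, 2 rose and 2 fell (median -0.05). The share called, 19%, was near the 19.6% of all tested genes, and 2 to 6 were called with 1 library left out. The peroxisomal thiolase Acaa1b fell from 61.8 ± 19.4 to 15.2 ± 3.4 normalised counts (log2 fold change -2.18, SE 0.30, edgeR adjusted p 0.00329), and its value is uncertain since Acaa1a is a near copy and exons of Dlec1 overlap it. Abcd2, a peroxisomal importer of very long-chain acyl-CoA, rose from 2852 ± 139 to 4479 ± 325 (0.65, SE 0.09). Acaa1b and Abcd2 were called in all 6 of those fits, whereas the bifunctional enzyme Ehhadh (0.53) and the peroxisome proliferation factor Pex11a (-0.49) were called in 2. Acox3 (0.12) and Acaa1a (-0.24) did not pass.

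Receptors of the PPAR family were described beside their responsive genes. Of 16 tested receptors and coregulators, 2 rose and 2 fell (25% called beside 19.6% of all tested genes, median 0.06). With 1 library left out, 2 to 7 were called. Pparg, the receptor typical of GM-CSF-grown macrophages, rose from 871 ± 63 to 1346 ± 204 normalised counts (log2 fold change 0.64, SE 0.11, edgeR adjusted p 0.00736), and the coactivator Ppargc1b rose from 115 ± 24 to 217 ± 18 (0.88, SE 0.15), both in all 6 of those fits. The coactivator Ncoa1 (-0.39) and the partner receptor Rxrb (-0.38) fell, in 1 and 2 of the fits. Ppara is not in the table used here, Ppard, named after its value was seen, was at -0.05, and Rxra (0.13) and Ncor1 (-0.16) did not pass.

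Other PPAR-responsive genes formed a further list. Of 19 tested, 10 fell and 4 rose (median -0.44), or 73.7% called beside 19.6% of all tested genes. With 1 library left out 5 to 15 were called, the 5 without WT replicate 1, where 6.07% of all tested genes were called. The list shares some genes with the lists above, such as Slc25a20 and Ehhadh. Angptl4, a secreted lipase inhibitor, fell from 802 ± 116 to 170 ± 88 normalised counts (log2 fold change -2.44, SE 0.29, edgeR adjusted p 0.00218), and the thioesterase Acot1 fell from 62.9 ± 24.4 to 10.8 ± 2.4 (-2.71, SE 0.34). The lipid droplet gene Cidec fell from 25.5 to 10.3 (-1.34), while the ketone body enzyme Bdh1 rose from 40.6 to 103 (1.43) with overlapping groups and a call in 1 of the 6 fits. Named after their values were seen, the lipid droplet coat gene Plin2 fell from 21218 ± 1018 to 8572 ± 1488 (-1.31, SE 0.14), and Fbp1, a gluconeogenic enzyme, had 2, 1 and 0 reads in WT and 11, 73 and 28 in Ahrr-deficient replicates 1 to 3. Angptl4, Acot1, Plin2 and Fbp1 were called in all 6 fits with 1 library left out. Fbp1 lay under the floor of 3 reads in every WT library, and passed the filter on low counts through its Ahrr-deficient level. Cd36 (-0.12, edgeR adjusted p 0.626) did not pass, and its fitted value was 0.02 without Ahrr-deficient replicate 3.

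Genes of the pyruvate dehydrogenase complex, which PDK4 inhibits, and its other regulators moved in both directions. Of 14 tested genes, 4 rose and 2 fell (42.9% called beside 19.6% of all tested genes, median 0.25). But 0 to 10 were called with 1 library left out, with 0 without WT replicate 1. The complex subunits Dlat (log2 fold change 0.40), Dld (0.39) and Pdha1 (0.32) and the activating phosphatase Pdp1 (0.61, from 89.1 ± 7.9 to 135 ± 18 normalised counts) rose. The kinases Pdk2 (-0.53, from 370 ± 2 to 261 ± 29) and Pdk1 (-0.29) fell, and Pdk3 (0.25, edgeR adjusted p 0.149) did not pass. Pdha1, Pdk1 and Pdk3 were named after their values were seen. Pdk2 was called in 5 of the 6 fits, Dld in 3, and Pdp1, Dlat, Pdha1 and Pdk1 in that without Ahrr-deficient replicate 1 only. Pdhb (0.15) and the pyruvate carrier Mpc2 (-0.14) did not pass.

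Relatives of the uncoupling proteins in the same carrier family moved in both directions. Of 6 tested, the ADP/ATP carrier Slc25a5 rose (log2 fold change 0.38) and the dicarboxylate carrier Slc25a10 fell (-0.43). The share called was 33.3%, beside 19.6% of all tested genes, the median was 0.01, and 0 to 2 were called with 1 library left out. Slc25a4 (0.02) and Slc25a11 (-0.03) did not pass, and their fitted signs changed under some alternatives. The list of malonyl-CoA and AMPK control holds the enzymes that make and remove malonyl-CoA, the inhibitor of CPT1, the subunits of AMPK and its activating kinase, and the sirtuin deacylases Sirt1, Sirt3 and Sirt5. Of its 12 tested genes, 1 rose and 3 fell (33.3% called beside 19.6% of all tested genes, median -0.19). With 1 library left out, 1 to 5 were called. Acaca, the cytosolic acetyl-CoA carboxylase, rose from 177 ± 6 to 350 ± 56 normalised counts (1.01, SE 0.13, edgeR adjusted p 0.00244), in all 6 fits. Acacb, the carboxylase at the mitochondrial membrane, fell from 38.6 ± 3.3 to 17.1 ± 8.6 (-1.59, SE 0.33), in 4 of the fits. The malonyl-CoA decarboxylase Mlycd (-0.31) and the AMPK kinase Stk11 (-0.41) fell, and the AMPK subunits Prkaa1 (0.18) and Prkab1 (-0.10) did not pass. The sirtuins, named after their values were seen, did not pass either, at 0.41 for Sirt1, -0.28 for Sirt3 and -0.34 for Sirt5.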

How the data were processed

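RNA from 6 cultures was sequenced, and groups were taken from the sample titles. The authors deposited raw read counts without gene identifiers and a signal of counts divided by DESeq2 size factors with identifiers. Per the submitters' processing notes the tools were CASAVA 1.8.2, fastp 0.20.0, STAR 2.7.10b, SAMtools 1.16.1, R 4.3.1 and DESeq2 1.40.2, on mm10. The counting program, annotation and strand are not given in the sources used here. Each deposited normalised value, times its library's size factor, was a whole number of reads (within 0.001, for 100% of values), which joined identifiers to counts. Features without an identifier held at most 0.0511% of a library's counts and entered the totals only.

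Counts were tested with edgeR 4.0.16 in R 4.3.3 (quasi-likelihood, TMM, filterByExpr, genotype as the only term, two-sided, Benjamini-Hochberg over 11408 genes). The biological coefficient of variation was 13%. SE was taken from the log2 fold change and the F statistic. The script was tested on simulated data. Levels are the deposited normalised signal, 1 read being worth 0.245 to 2.93 normalised counts, and were preferred over CPM after the ribosomal RNA in WT replicate 2 was seen. Coordinates and transcript lengths come from GENCODE M21 (GRCm38), with 16094 of 16111 identifiers matched. Reads carry no molecular identifiers, so intervals and floors cover counting error only. The p-values measure the spread between these cultures.

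The members and lists were chosen with earlier results of these data known. From each list, up to 4 called genes of the largest change (mean of at least 20 counts) and the 2 most abundant uncalled genes were named, and others are marked. Neighbours have an end within 100 kb of Ucp3 or Ucp2. Alternatives were RLE and upper-quartile scaling, 2 other filters, DESeq2 1.42.0, limma-voom (limma 3.58.1), a replicate block, thinning to the smallest total, each library left out, and WT replicate 2 and Ahrr-deficient replicate 1 left out together.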

Additional observations from a re-analysis of the deposited data

How the results depend on the processing

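The members called ranged from 3 to 9 with 1 library left out and numbered 8 without WT replicate 2 and Ahrr-deficient replicate 1 together, 6 with limma-voom, 5 with RLE and upper-quartile scaling, no filter, DESeq2 and the replicate block, and 4 with the mean filter or thinning, under which Pdk4 was not tested. Genes called over the whole table ranged from 694 without WT replicate 1 (6.07% of tested genes) to 3857 without Ahrr-deficient replicate 1 (32.6%). Of 11408 tested genes, 2749 were called with limma-voom, 2234 with upper-quartile scaling, 2220 with RLE scaling, 1997 with DESeq2 and 1390 under the replicate block. The calls were 2859 of 24416 with no filter, 1967 of 10042 with the mean filter and 1221 of 10318 after thinning. With 1 library left out, the calls ranged from 3 to 10 (uptake and activation), 0 to 1 (carnitine shuttle), 2 to 10 (mitochondrial enzymes), 2 to 6 (peroxisomal), 2 to 7 (PPAR receptors and coregulators), 5 to 15 (other PPAR-responsive genes), 0 to 10 (pyruvate dehydrogenase), 0 to 2 (uncoupling protein relatives) and 1 to 5 (malonyl-CoA and AMPK). Under the replicate block, 4 genes of uptake and activation, 2 PPAR receptors and coregulators, 2 genes of pyruvate dehydrogenase and 0 uncoupling protein relatives were called. After thinning, the counts were 4 (uptake and activation), 4 (mitochondrial enzymes), 2 (peroxisomal), 7 (other PPAR-responsive genes), 3 (pyruvate dehydrogenase), 1 (uncoupling protein relatives) and 2 (malonyl-CoA and AMPK). The uncoupling protein relatives also numbered 1 with upper-quartile scaling, with DESeq2, and without WT replicate 2 and Ahrr-deficient replicate 1 together. Some of these fits hold fewer samples or reads, and the cause of these changes was not tested.

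Signs changed for 5 named genes that did not pass the test. With 1 library left out, log2 fold changes ranged from -0.26 to 0.11 for Hadhb, from -0.31 to 0.0197 for Cd36, from -0.0624 to 0.0956 for Slc25a4, from -0.11 to 0.0245 for Slc25a11 and from -0.0977 to 0.00511 for Mrpl48. Slc25a4 was at -0.0140 with upper-quartile scaling, and Slc25a11 at 0.0181 without WT replicate 2 and Ahrr-deficient replicate 1 together. The labels tie no replicate number to a shared litter or day. Departures from the group mean, compared between the 2 libraries that share a number, correlated at -0.169, 0.0714 and 0.129. Counting error and unequal depth can lower such correlations, so these values do not decide whether the samples are paired.

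Ucp2 and Ucp3 were called in all 15 alternatives and Pdk4 in the 13 that tested it, while Cpt1a was called in 10 of 15 and Acadl in 11 of 15. The mean filter and thinning left Pdk4 out for its low counts. These genes were chosen by the same difference, so the repeated calls describe them and lend no support to the choice. Pdk4 is under the floor of 3 reads in Ahrr-deficient replicates 1 and 2. In replicate 1 that floor equals 8.78 normalised counts, and the precision of the other members is lowest in that library.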
